A study of Mus musculus with 6 samples.

Results

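The genes described here encode the proteins of the mitochondrial ribosome, taken as all probe sets with exactly 1 platform symbol that starts with Mrpl or Mrps, with the brightest probe set, by its mean over the 6 arrays, standing for each gene. There were 77 such genes among 19938 genes with a probe set of 1 symbol, drawn from 85 probe sets. By what is known of the mammalian mitochondrial ribosome, 50 of them belong to its large subunit and 26 to its small subunit. The remaining gene, Mrps36, carries the family name but its product is a component of the oxoglutarate dehydrogenase complex. Cells came from spleens of irradiated B6D2F1/J mice that had received T cell depleted B6 bone marrow, with or without B6 spleen cells, which the labels do not assign to mice. The mice were given intraperitoneal rapamycin (1.5 mg/kg, 3 mice) or PBS (3 mice) every other day until day 10, when CD11b+ cells, called myeloid-derived suppressor cells (MDSCs) in the labels, were isolated with magnetic beads. Total RNA of each mouse was read on 1 array. Each value below is a log2 expression value of a probe set, and a log2 difference is rapamycin minus PBS.

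Mitochondria hold their own ribosomes, which make only the few proteins encoded in mitochondrial DNA, all of them subunits of the respiratory chain and the ATP synthase. The ribosomal RNAs come from mitochondrial DNA, whereas every protein of the mitochondrial ribosome is encoded in the nucleus, made in the cytosol and imported. Part of these proteins have counterparts in bacterial ribosomes and part are found only in mitochondria. The kinase mTOR, which rapamycin inhibits as part of mTOR complex 1, is known to promote the making of mitochondrial proteins through translation and through the factors YY1 and PGC-1 alpha.

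Promoters of these genes are known for binding sites of NRF1, of the ETS factor GABPA and of YY1, so the promoter sequences of called members are shown first. Called means an adjusted p under 0.05 in limma, a linear model fitted to all genes. The 4 sequences are those of the called members with the largest moderated statistic among the 68 members matched in the RefSeq promoter table (GRCm38.p6). Each holds the 250 bases before the annotated start, written along the gene's strand, and capitals mark a match to a searched motif.
Mrpl45 (chr11:97315466-97315715, + strand): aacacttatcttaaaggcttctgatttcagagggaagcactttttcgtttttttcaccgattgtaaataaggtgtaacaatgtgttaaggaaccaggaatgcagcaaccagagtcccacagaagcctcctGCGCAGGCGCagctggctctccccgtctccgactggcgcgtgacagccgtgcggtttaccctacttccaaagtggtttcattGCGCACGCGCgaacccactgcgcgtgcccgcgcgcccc
Mrpl52 (chr14:54426659-54426908, + strand): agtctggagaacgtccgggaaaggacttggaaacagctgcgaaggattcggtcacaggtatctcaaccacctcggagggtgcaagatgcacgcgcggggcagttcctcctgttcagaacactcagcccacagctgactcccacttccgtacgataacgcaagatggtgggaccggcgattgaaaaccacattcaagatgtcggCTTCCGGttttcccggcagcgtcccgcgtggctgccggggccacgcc
Mrpl10 (chr11:97041332-97041581, + strand): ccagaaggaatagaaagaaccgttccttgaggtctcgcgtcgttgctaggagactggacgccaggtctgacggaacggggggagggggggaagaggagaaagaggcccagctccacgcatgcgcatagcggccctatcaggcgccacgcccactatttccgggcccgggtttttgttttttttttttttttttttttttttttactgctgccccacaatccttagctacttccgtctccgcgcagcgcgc
Mrpl47 (chr3:32736756-32737005, - strand): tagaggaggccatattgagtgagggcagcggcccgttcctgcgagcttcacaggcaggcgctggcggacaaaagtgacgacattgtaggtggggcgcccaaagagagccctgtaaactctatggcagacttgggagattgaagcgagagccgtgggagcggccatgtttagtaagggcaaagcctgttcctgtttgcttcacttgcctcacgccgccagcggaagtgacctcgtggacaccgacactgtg
The motifs were GCGC, any base and TGCGC for NRF1, CCGGAAG for ETS factors and AAGATGGC for YY1, searched on both strands over 300 bases, from 250 before to 50 after the start. In Mrpl45 the NRF1 letters began 120 and 38 bases before the start, and a further match lay after it. In Mrpl52 the ETS letters began 47 bases before the start, on the reverse strand, with a further match after it. Mrpl10 and Mrpl47 held none of the 3 motifs.

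The 3 motifs were common in the promoters of the family. Of 74 member windows, 25 held the ETS letters (33.8%), 13 the NRF1 letters (17.6%) and 12 the YY1 letters (16.2%). Of all 32851 windows of the table the shares were 8.86% for ETS, 4.60% for NRF1 and 2.75% for YY1. At least 1 of the 3 motifs stood in 42 member windows (56.8%) and in 14.7% of all windows. The table also holds genes that were not tested here, and the gap was smaller among tested genes. Of tested members with a window, 40 held a motif and 26 did not. Of all tested genes with a window, 3122 held a motif and 7938 did not. These are matches of letters, not measured binding. Among tested members, the 24 with the ETS letters had a median log2 difference of -0.0018 and the 42 without them -0.021. The 13 with NRF1 letters had a median of -0.050 against -0.0069 for the 53 without, and the 11 with YY1 letters one of -0.022 against -0.014 for the 55 without. Over all genes tested with a promoter window, the medians with and without the letters were -0.027 and -0.016 for ETS, -0.031 and -0.017 for NRF1, and -0.024 and -0.018 for YY1.

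**Figure D1:**
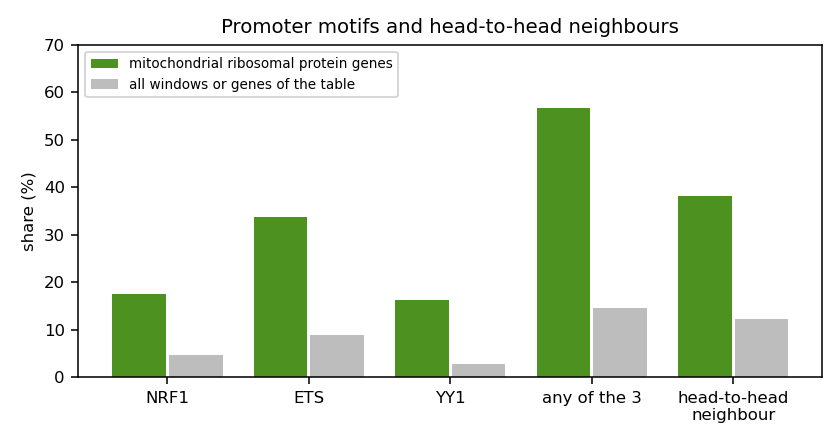
Share (%) of promoter windows that hold each motif, and share of genes with a head-to-head neighbour, for the mitochondrial ribosomal protein genes (green) and for all windows or genes of the RefSeq table (grey). The members stand above the table in each of the 5 shares, 56.8% against 14.7% for any of the 3 motifs. The table also holds genes that were not tested here.

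Many members also lay close to another gene. A neighbour on the opposite strand, with the starts facing away from each other and at most 1000 bases apart, was found for 26 of 68 members (38.2%) and for 12.2% of 27025 genes. Mrpl46 and Mrps11, 1 gene of each subunit, are such neighbours with 42 bases between their starts. Mrpl43 faces Twnk, the mitochondrial DNA helicase, at 116 bases, Mrpl49 faces Fau, which encodes a protein of the cytosolic ribosome, at 192 bases, and Mrpl47 faces Ndufb5, a subunit of respiratory complex I, at 308 bases. Of the 24 members that were tested together with their neighbour, Mrpl47 was called, and 0 neighbours were called by limma (3 at an unadjusted p under 0.05). Mrpl46 and Mrps11 entered both as members and as neighbours. Of all 13965 genes tested 11.3% were called, and 1578 were higher and 2363 lower at that unadjusted p. Ndufb5 differed by 0.10 ± 0.07 (SE, limma adjusted p 0.413), where Mrpl47 differed by -0.33 ± 0.08. The other probe set of Mrpl47 gave -0.069 with overlapping arrays.

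As a family, the mitochondrial ribosomal protein genes had a share of calls and a median difference between rapamycin and PBS near those of all genes. Of 77 members, 75 were bright enough to be tested, and 3 were higher, 4 lower and 68 not called by limma. That is 9.33% of them, where 11.3% of all 13965 genes tested were called (4.42% higher and 6.92% lower). At an unadjusted p under 0.05 in limma, 7 of the 75 members were higher and 14 lower. Of all 13965 genes, 1578 were higher and 2363 lower at that cut. In such bulk RNA, fewer cells of a type and less RNA per cell cannot be told apart. The difference was below 0 for 43 members (57.3%, against 55.6% of all genes tested). The median log2 difference was -0.015 over the members and -0.017 over all genes tested. Both medians turned positive, at 0.016 and 0.015, when the arrays were aligned on the median of the tested genes, so neither sign is fixed. Over all genes 61.0% of the calls were lower with rapamycin, against 44.7% with that alignment and 71.0% with the medians of all probe sets aligned. The quartiles of the members were -0.11 and 0.053, close to those of all genes (-0.11 and 0.068). No member reached a 1.5-fold change: the range ran from -0.45 for Mrps10 to 0.52 for Mrpl52, where all genes ran from -1.51 to 3.04.

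The arrays of the groups did not overlap for 24 of the 75 tested members (32.0%), against 32% of all genes. Rapamycin arrays lay below all PBS arrays for 16 members and above them for 8, against 19.4% and 12.6% of all genes. The median over the tested members was 7.36, 7.29 and 7.33 on the rapamycin arrays and 7.31, 7.29 and 7.28 on the PBS arrays, so the groups overlapped. Rapamycin replicate 2 held the single lowest value for 18 of the 65 members that had 1 lowest array, and the single highest for 2 of 74 that had 1 highest array. Over all genes, that array held 18.9% of the lowest and 14.98% of the highest values. PBS replicate 1 held the highest value of 21 members (28.4%, against 15.8% of all genes).

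The precision allows a coarse statement only on most single members. The median standard error of a member's log2 difference was 0.063 and the median half-width of its 95% interval 0.15. For 71 of the 75 tested members (94.7%) the 95% interval lay inside a 1.5-fold change in either direction. The 4 with an interval beyond 1.5-fold were Mrpl52, Mrps10, Mrps9 and Mrps18b. The differences of 42 members were under 0.1 in size (56.0%, against 54.1% of all genes), and none of these was called. The median SD of a member between mice was 0.066 with rapamycin and 0.073 with PBS. Some members had equal values on several arrays. Mrpl16 stood at 6.42 on all 3 PBS arrays and Mrpl32 at 6.75 on all 3 rapamycin arrays, each with an SD of 0 there.

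**Figure D2:**
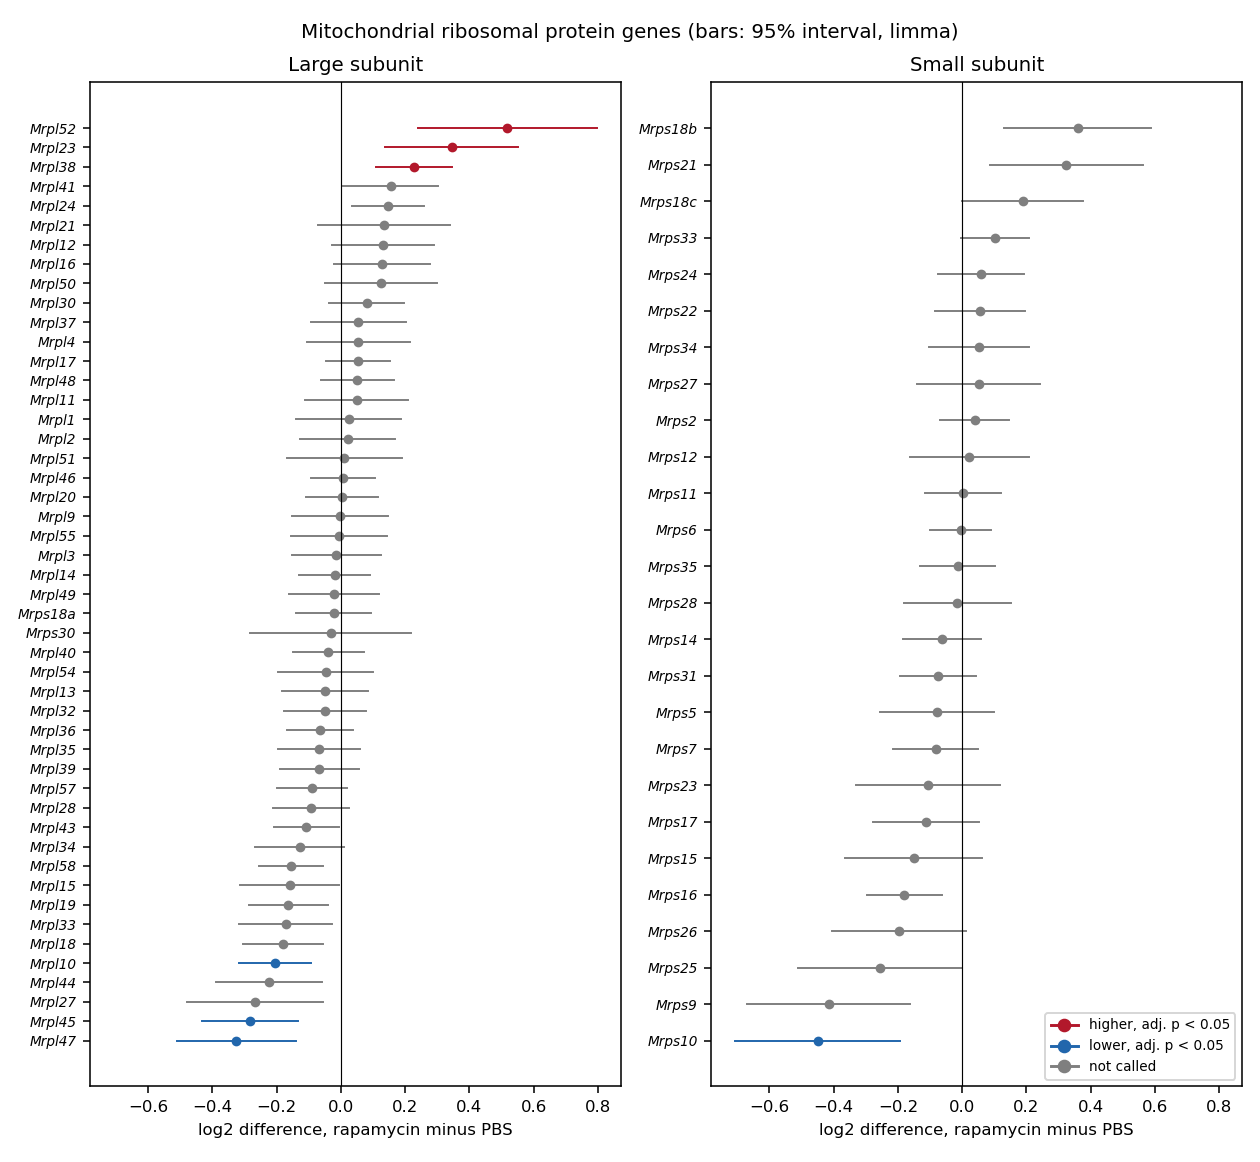
Log2 difference (rapamycin minus PBS, x axis) of each tested member with its 95% interval from limma, ranked within the large subunit (left) and the small subunit (right), with Mrps36, of neither subunit, not drawn. Members lie on both sides of 0, between -0.45 (Mrps10) and 0.52 (Mrpl52), with 3 called higher (red) and 4 lower (blue).

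In the large subunit, 3 members rose, 3 fell and 42 of 48 tested were not called by limma. That is 12.5% called, against 11.3% of all genes tested, and the median log2 difference was -0.021. Mrpl52, a protein found only in mitochondria, stood at 8.33, 8.09 and 7.94 with rapamycin and at 7.80, 7.51 and 7.50 with PBS. All 3 rapamycin arrays lay above the PBS arrays. It was 1.43-fold higher, with a log2 difference of 0.52 ± 0.12 (SE, limma adjusted p 0.0370). Mrpl23, counterpart of the bacterial protein L23 at the mouth of the tunnel through which the new chain leaves, stood at 7.94, 7.59 and 7.80 with rapamycin and at 7.44, 7.49 and 7.36 with PBS. The rapamycin values were all higher, replicate 2 by the least, and the difference was 0.34 ± 0.09 (limma adjusted p 0.0489). The second probe set of Mrpl23 gave 0.29 with arrays that overlapped, and the mean of both was not called (adjusted p 0.0569). Mrpl38, a mitochondria-specific protein of the central protuberance, stood at 7.20, 7.08 and 7.20 with rapamycin and at 6.93, 6.92 and 6.96 with PBS. Its groups were narrow and apart, and it was 0.23 ± 0.05 higher (limma adjusted p 0.0332).

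Of the 3 large-subunit members that fell, Mrpl45, a mitochondria-specific protein beside the exit tunnel that faces the inner membrane, stood at 7.68, 7.74 and 7.75 with rapamycin and at 8.03, 8.10 and 7.89 with PBS. Every rapamycin array was lower, and the log2 difference was -0.28 ± 0.06 (SE, limma adjusted p 0.0355). Mrpl10, whose bacterial counterpart anchors the stalk that recruits translation factors, stood at 8.51, 8.47 and 8.45 with rapamycin and at 8.62, 8.73 and 8.70 with PBS. The groups did not overlap, and the difference was -0.20 ± 0.05 (limma adjusted p 0.0375). Mrpl47, counterpart of the bacterial tunnel-exit protein L29, stood at 4.78, 5.04 and 4.99 with rapamycin and at 5.27, 5.18 and 5.34 with PBS. All of these values lie near the brightness threshold of 4.72, and the difference was -0.33 ± 0.08 (limma adjusted p 0.0414). The annotation pairs this probe set with a cDNA clone only, and the other probe set of Mrpl47, which it pairs with the RefSeq transcript, gave -0.069 with overlapping arrays. The mean of both was not called (adjusted p 0.0655).

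Just outside the threshold in the large subunit, Mrpl58, a peptidyl-tRNA hydrolase built into the ribosome, stood at 8.03, 7.99 and 8.03 with rapamycin and at 8.20, 8.17 and 8.14 with PBS. The groups did not overlap, at a log2 difference of -0.16 ± 0.04 (limma adjusted p 0.0583). Mrpl18 averaged 9.11 ± 0.04 with rapamycin and 9.29 ± 0.07 with PBS (SD, n = 3 each), a difference of -0.18 ± 0.05 (SE, limma adjusted p 0.0721). Mrpl44, a ribonuclease III-like protein, differed by -0.22 ± 0.07 (limma adjusted p 0.0832), Mrpl19 by -0.16 ± 0.05 (0.0880) and Mrpl24 by 0.15 ± 0.05 (0.0962). None of these 5 passed the test. Mrpl27, Mrpl33, Mrpl43, Mrpl15, Mrpl57 and Mrpl36 were also lower on every rapamycin array than on any PBS array, and Mrpl17 higher, without passing the test. On the other probe set of Mrpl27 the groups overlapped, at a difference of -0.027. For the other 30 tested members of the large subunit the arrays of the groups overlapped. Mrpl22 and Mrpl42 were too dim to be tested, at log2 differences of -0.11 and 0.15 in a fit of all 19938 genes (limma adjusted p 0.347 and 0.423).

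**Figure D3:**
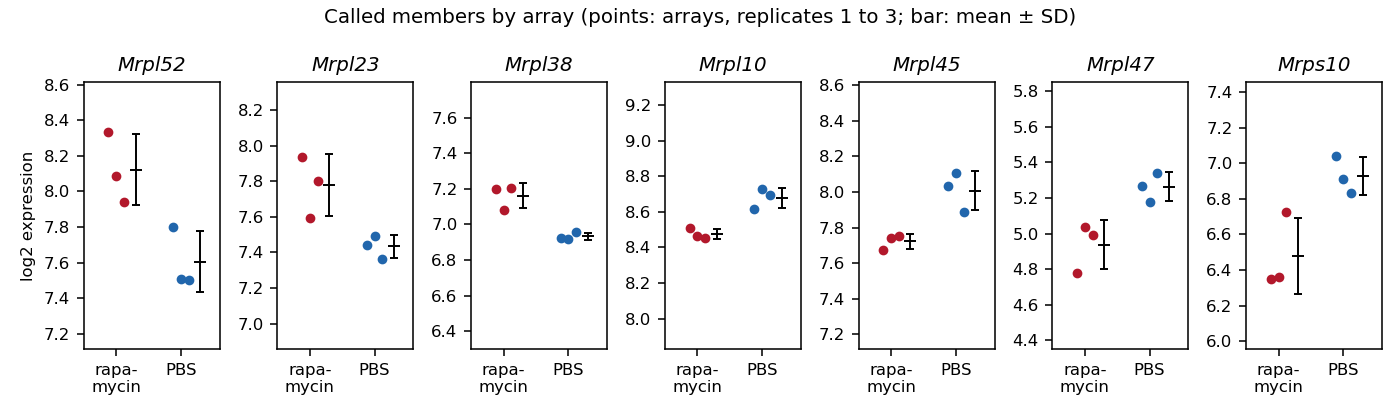
Log2 expression on each array for the 7 called members, rapamycin at left and PBS at right of each panel, points being mice and bars the mean ± SD; each panel spans the same range of log2 units around its own mean. The groups do not overlap for Mrpl52, Mrpl23 and Mrpl38 (higher with rapamycin) nor for Mrpl10, Mrpl45, Mrpl47 and Mrps10 (lower).

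In the small subunit, 1 member fell, 0 rose and 25 of 26 tested were not called by limma. That is 3.85% called, against 11.3% of all genes tested, and the median log2 difference was -0.014. At an unadjusted p under 0.05, 2 were higher and 3 lower. Mrps10, whose bacterial counterpart lies in the head of the small subunit, stood at 6.35, 6.36 and 6.73 with rapamycin and at 7.04, 6.91 and 6.83 with PBS. The groups did not overlap, and rapamycin replicate 3 was the nearest to the PBS arrays. Mrps10 was 1.36-fold lower, a log2 difference of -0.45 ± 0.11 (SE, limma adjusted p 0.0428). Mrps9, whose bacterial counterpart reaches the site of the peptidyl-tRNA, averaged 7.67 ± 0.22 with rapamycin and 8.09 ± 0.08 with PBS (SD, n = 3 each). Its groups did not overlap. It differed by -0.42 ± 0.11 (SE) and missed the threshold by little (limma adjusted p 0.0506). Of the 9 alternatives that kept all arrays, 7 called Mrps9, as many as called Mrps10.

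Mrps18b, a mitochondrial variant of the bacterial protein S18, stood at 7.88, 7.58 and 7.57 with rapamycin and at 7.44, 7.23 and 7.28 with PBS. The groups did not overlap, at a difference of 0.36 ± 0.10 (limma adjusted p 0.0572). Mrps16 averaged 8.05 ± 0.06 with rapamycin and 8.23 ± 0.05 with PBS (SD, n = 3 each), a difference of -0.18 ± 0.05 (SE, limma adjusted p 0.0619). Mrps21 stood at 9.23, 8.98 and 8.80 with rapamycin and at 8.73, 8.66 and 8.64 with PBS, a difference of 0.32 ± 0.10 (limma adjusted p 0.0851). Mrps33 was also higher on every rapamycin array, though its other probe set gave 0.037 with overlapping groups. For the other 20 members of the small subunit the groups overlapped. Mrps36, which is not a part of the ribosome, differed by 0.048 ± 0.064 (limma adjusted p 0.666).

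Calls in both directions were found among proteins of either origin. Of 45 tested members with a bacterial counterpart 1 rose and 3 fell (8.89% called, median -0.015). Of 28 mitochondria-specific ones 2 rose and 1 fell (10.7% called, median -0.018), against 11.3% called over all genes. Mrps18b was counted as mitochondria-specific, and Mrps18a, of the S18 family, and Mrps36 were in neither class. The difference between subunits or classes was not tested. All 8 members with a pair of probe sets had differences of the same sign on both. The larger difference was on the brighter probe set for 5 of them (Mrpl23, Mrpl27, Mrpl41, Mrpl47 and Mrps33), and on the dimmer for Mrps5, Mrpl51 and Mrps36. For Mrpl51 the sign was not stable, at 0.011 on the brighter probe set, 0.20 on the dimmer and -0.013 for the brighter one with the medians of all probe sets aligned.

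All 7 calls hinged on which mice were included when each array was left out in turn, which also left fewer samples. With rapamycin replicate 1 left out, limma called 0 members (7 higher and 13 lower at an unadjusted p under 0.05) and 2.64% of all genes. With PBS replicate 2 left out it called 0 members (8 higher and 10 lower at an unadjusted p under 0.05) and 0.809% of all genes. With all arrays, 7 of 75 members were higher and 14 lower at that unadjusted cut, and 1578 and 2363 of all 13965 genes. Leaving out PBS replicate 3 kept Mrpl45 alone (limma adjusted p 0.0422). Leaving out PBS replicate 1 kept Mrpl10 (0.0488) and Mrpl52 (0.0489). Leaving out rapamycin replicate 2 kept Mrpl23 (0.0303) and Mrpl38 (0.0338). The fit that dropped rapamycin replicate 3 kept Mrps10 (0.0179) and Mrpl52 (0.0378), and also called Mrps9 (0.0201) and Mrps21 (0.0372). Mrpl47 was called in 0 of these 6 limma fits (adjusted p between 0.0590 and 0.129). The highest adjusted p of limma over the 6 fits was 0.111 for Mrpl38, 0.125 for Mrpl45, 0.14 for Mrpl52, 0.119 for Mrpl10, 0.155 for Mrps10 and 0.15 for Mrpl23. None of the 7 changed direction in any of these fits. None could, since their groups do not overlap, so the kept direction is no further support.

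**Figure D4:**
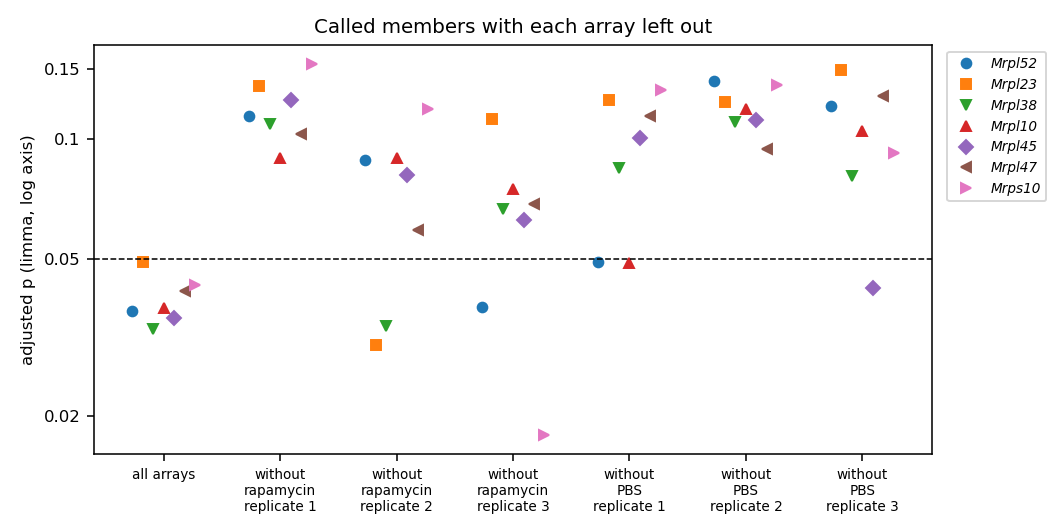
Adjusted p of limma (log axis) for the 7 called members with all arrays and with each array left out in turn, the dashed line marking 0.05. Without rapamycin replicate 1 or PBS replicate 2 all 7 lie above the line.

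Genes that work with the mitochondrial ribosome were described from lists. Of 11 tested factors of mitochondrial translation, 0 were called by limma, with 1 higher and 3 lower at an unadjusted p under 0.05, at a median log2 difference of -0.091. The recycling factor Mrrf differed by 0.19 ± 0.06 (SE) and the elongation factors Gfm1 by -0.21 ± 0.07 and Guf1 by -0.31 ± 0.10 (limma adjusted p 0.0946, 0.102 and 0.0941). Gfm1 was called without rapamycin replicate 3 (adjusted p 0.0227). Of 5 tested mitochondrial ribosome-associated proteins under other names (Chchd1, Mtres1, Dap3, Gadd45gip1 and Ptcd3), 0 were called by limma and 0 had an unadjusted p under 0.05, with differences between -0.018 and 0.040. None of 18 tested mitochondrial tRNA synthetases was called by limma (1 higher and 4 lower at an unadjusted p under 0.05, median -0.029).

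Of 28 tested genes of mitochondrial ribosome assembly, 4 fell and 0 rose by limma (1 higher and 6 lower at an unadjusted p under 0.05), 14.3% against the 11.3% called over all genes, at a median of -0.071. Mterf3, which binds mitochondrial DNA and takes part in ribosome assembly, was lower on every rapamycin array than on any PBS array, at a difference of -0.34 ± 0.06 (SE, limma adjusted p 0.0139). It lost its call when rapamycin replicate 1 (adjusted p 0.0593), PBS replicate 2 (0.0540) or PBS replicate 3 (0.0561) was dropped. Ngrn, needed for the ribosomal RNA of the large subunit, differed by -0.45 ± 0.09 (limma adjusted p 0.0246). Rbfa, a maturation factor of the small subunit, differed by -0.29 ± 0.06 (0.0332) and Afg3l2, a subunit of the inner-membrane protease that processes the MRPL32 protein, by -0.23 ± 0.06 (0.0457). The list held 0 lower calls when rapamycin replicate 1 or PBS replicate 3 was dropped. Mterf3 alone was called with rapamycin replicate 2 or PBS replicate 1 dropped, and Ngrn alone with PBS replicate 2 dropped. With rapamycin replicate 3 dropped, Mterf3 and Rbfa kept their calls and Gtpbp10, a GTPase of large-subunit assembly, was also called (adjusted p 0.0378), while Afg3l2 was called in 0 of the 6 limma fits. Of 23 tested genes of mitochondrial transcription and RNA, Slirp, which guards mitochondrial messenger RNAs, rose by 0.29 ± 0.05 (limma adjusted p 0.0139). Ptcd1 fell by 0.25 ± 0.06 (0.0362) and Elac2, which trims mitochondrial transfer RNAs, by 0.18 ± 0.04 (0.0407), and the other 20 were not called. Slirp lost its call without rapamycin replicate 1 (adjusted p 0.0528), PBS replicate 2 (0.0635) or PBS replicate 3 (0.0558). Ptcd1 kept its call in 1 of the 6 fits, that without rapamycin replicate 3, and Elac2 in 0 (limma adjusted p from 0.0673 to 0.121).

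Among regulators known for the promoters of these genes, Gabpa fell by 0.36 ± 0.06 (SE), with means of 8.36 ± 0.04 with rapamycin and 8.72 ± 0.10 with PBS (SD, n = 3 each, limma adjusted p 0.0155). Its call was lost without rapamycin replicate 1 (adjusted p 0.0696), rapamycin replicate 2 (0.0527) or PBS replicate 2 (0.0743). Myc rose by 0.71 ± 0.13 (limma adjusted p 0.0209) and lost its call without rapamycin replicate 1 (0.0812), rapamycin replicate 2 (0.0573), PBS replicate 2 (0.0943) or PBS replicate 3 (0.0826). Of 10 tested regulators 1 rose and 1 fell by limma (20% called, against 11.3% of all genes tested). At an unadjusted p under 0.05 in limma, 2 were higher and 2 lower. Gabpb1, Yy1 and Nrf1 differed by -0.15 ± 0.06, -0.12 ± 0.06 and -0.085 ± 0.058 and did not pass the test. Neither did Pprc1 (0.20 ± 0.08) and Ppargc1b (0.15 ± 0.07), nor Esrra (-0.028), Max (-0.010) and Mycn (0.0044). Ppargc1a was too dim to be tested. Among the 24 tested members with the ETS letters in the promoter 1 rose and 0 fell, and among the 42 without them 1 rose and 4 fell. Over all genes, 79 rose and 162 fell of 1945 with the letters, and 386 rose and 627 fell of 9115 without them.

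The proteins of the cytosolic ribosome and of oxidative phosphorylation, measured on the same arrays, give the scale. Of 58 tested cytosolic ribosomal protein genes 23 rose and 0 fell (39.7% called, against 11.3% of all genes), at a median log2 difference of 0.20. At an unadjusted p under 0.05 in limma, 39 were higher and 0 lower. The groups did not overlap for 40 of these genes (69.0%, against 32.0% of all genes). The leading ones were Rps15a (0.74 ± 0.06, SE), Rps12 (0.63 ± 0.06), Rpl7 (0.47 ± 0.06) and Rps3a1 (1.07 ± 0.14). These values are of the brightest probe set, of 14 for Rps12 and 4 for Rpl7. Rps12 and Rpl7 kept their calls in the 9 alternatives with all arrays, averaging over probe sets among them. Of 79 tested subunits of oxidative phosphorylation 12 rose and 3 fell (19.0% called), at a median of 0.031, and 36 (45.6%) had groups that did not overlap. Uqcrh (0.46 ± 0.06), Sdhc (0.44 ± 0.06) and Atp5md (0.48 ± 0.07) were among the higher and Ndufs5 (-0.43 ± 0.06) among the lower. Beside these, 3 of 75 tested mitochondrial ribosomal protein genes rose and 4 fell, at a median of -0.015. The count of 23 higher cytosolic genes became 2 with PBS replicate 2 left out, 7 with rapamycin replicate 1, 10 with PBS replicate 3 and 11 with either rapamycin replicate 3 or PBS replicate 1 left out. The count of 12 higher subunits of oxidative phosphorylation became 1 with PBS replicate 2 left out, 4 with rapamycin replicate 1, 5 with PBS replicate 1, 6 with PBS replicate 3 and 7 with rapamycin replicate 2 left out. The count of 3 lower ones became 0 with PBS replicate 2 left out. The difference between these families and the mitochondrial ribosomal protein genes was not tested.

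**Figure D5:**
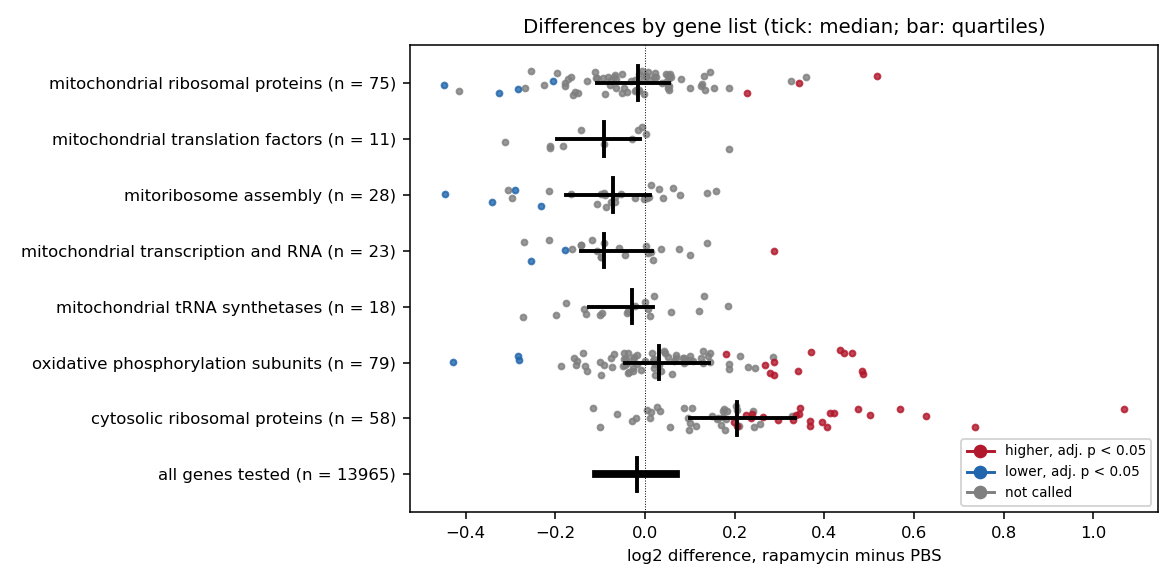
Log2 difference (rapamycin minus PBS, x axis) of each tested gene by list, with called genes in red (higher) or blue (lower), a tick at the median and a bar over the quartiles; all genes tested are shown by median and quartiles only. The mitochondrial ribosomal proteins lie around the median of all genes (-0.015 and -0.017), whereas the cytosolic ribosomal proteins lie around 0.20.

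The makeup of the sorted cells was read from marker genes. The myeloid markers were bright in both groups, with an antilog signal summed over 10 genes of 46940 to 51030 with rapamycin and 48650 to 51720 with PBS, and 1 of the 10, the chemokine receptor Ccr2, fell (-0.34 ± 0.08, SE). The sum over 7 T cell markers was 252 to 295 with rapamycin and 317 to 335 with PBS, with Cd8a (-0.27 ± 0.06) and Cd3g (-0.39 ± 0.09) lower by limma. Cd8b1 (-0.48, not called) and Cd3d (-0.43, too dim to be tested) were also lower on every rapamycin array. The groups overlapped for Cd3e (-0.18), Cd4 (-0.075) and Cd247 (0.0082). The sum over 4 B cell markers was 119 to 128 with rapamycin and 135 to 144 with PBS, with Cd79b lower (-0.32 ± 0.06). The other 3 B cell markers (Pax5 at 0.12, Cd79a at -0.088 and Ms4a1 at -0.013) were too dim to be tested and overlapped between the groups. All 4 NK cell markers were too dim to be tested. The sum over 6 erythroid markers was 258 to 287 with rapamycin and 221 to 230 with PBS, with Slc4a1 higher (0.64 ± 0.09). Alas2 was also higher on every rapamycin array (0.35 ± 0.12) but was not called. The groups overlapped for Klf1 (0.10), Ermap (0.061), Epor (-0.11) and Rhag (0.19), the last too dim to be tested. The sum over 7 genes of dividing cells overlapped, at 6139 to 6699 with rapamycin and 6381 to 6448 with PBS. Of these calls, Slc4a1 was lost without PBS replicate 2, Cd79b kept its call without rapamycin replicate 2 or 3 only, Cd3g without PBS replicate 1 only, and Ccr2 and Cd8a in 0 of the 6 limma fits. Their part in the calls among mitochondrial ribosomal protein genes was not tested.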

How the data were processed

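Total RNA of CD11b-sorted spleen cells from 6 mice was labelled with biotin and read on 1 array per mouse. The authors deposited 1 log2 value per probe set and array, made with RMA in Affymetrix Expression Console per the submitters' processing notes, which name no versions. RMA makes the distributions of probe intensities alike before it combines probes, which would reduce a change of most genes one way, yet the arrays' medians over the deposited values still ran from 5.44 to 5.46 with rapamycin and from 5.42 to 5.43 with PBS. The labels name the mice as biological replicates, and 3 arrays a group limit the precision.

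Probe sets were named from the platform annotation of 2016. Of 35556, 21789 had 1 symbol. A further probe set, with the symbols of Ccdc142 and Mrpl53, was left out, so Mrpl53 was not analysed here. A brightness threshold at the 30th percentile of the probe sets with 1 symbol (a log2 mean of 4.72) left 13965 genes for the test. The test was that of limma 3.58.1 (lmFit and eBayes, 2-sided, R 4.3.3), with Benjamini-Hochberg adjustment over all genes tested, checked on simulated data. In that simulation 30 of 50 log2 changes of 0.3 were recovered and 48 of 50 of 0.6, with 15 false calls. A member that was not called may therefore still have changed by a small amount. Standard errors are limma's. Alternatives were other brightness filters, normalizations, variance models and array weights, averaging over a gene's probe sets, the replicate number as a block and each array left out. Alignment on the median of the tested genes was added after seeing the data.

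The members and lists were chosen with earlier results of these data known. Genes named with values were every called member, the next ones by moderated statistic up to 12, members outside the ribosome and up to 4 called genes of each other list. The members with a pair of probe sets, those named for groups that do not overlap and the dim members were added after their values were seen. So were Mrps21, Mrpl44, Mrpl19, Mrpl24, Ndufb5, Gabpb1, Yy1, Nrf1, Pprc1, Ppargc1b, Esrra, Max, Mycn, Mrrf, Gfm1, Guf1 and Gtpbp10. The dim B cell markers and the T cell and erythroid markers not called were added likewise. Promoter windows came from RefSeq (GRCm38.p6), which the array's own build, not given in the sources used here, may differ from.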

Additional observations from a re-analysis of the deposited data

How the results depend on the processing

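Against 3 higher and 4 lower members, the count was 1 and 2 with no brightness filter, 5 and 2 with the replicate block and 5 higher with the medians of the tested genes aligned. It was 7 lower after quantile normalization again and 8 lower with the medians of all probe sets aligned. Leaving out each array gave 0 to 2 higher and 0 to 2 lower members, and 52 to 561 higher and 61 to 775 lower genes over all genes. The members' median of -0.015 was 0.016 with the medians of the tested genes aligned, and ran from -0.038 to -0.0011 with an array left out. The replicate numbers were not taken to pair the mice: the deviations of same-numbered arrays correlated at 0.26, 0.00995 and 0.046. With that block, 5 of the 7 calls remained, Mrpl10 (adjusted p 0.0658) and Mrps10 (0.0502) being lost. Mrpl51 turned negative with the medians of all probe sets aligned (-0.013), with array weights (-0.0049) and without rapamycin replicate 1 (-0.051), PBS replicate 1 (-0.025) or PBS replicate 3 (-0.016), where the fits that left out an array gave up to 0.073. No cause was tested. Genes near the brightness threshold, such as Mrpl47, have the least signal over background.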
